A study of Mus musculus with 40 samples.

Results

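The striatum of the mouse brain was set against amygdala, hippocampus and prefrontal cortex on microarrays, gene by gene. Members were chosen by the region in the sample title: 8 striatum arrays of 40 in the series, compared with 24 arrays of the other 3 regions, with each region given the same weight. The 8 cerebellum arrays were not used in the comparison. Striatum came from Ala92D2HY mice (4 arrays) and Thr92D2HY mice (4 arrays), and amygdala, hippocampus and prefrontal cortex of both genotypes followed with 4 arrays for each region and genotype. The genotypes differ at position 92 of the type 2 deiodinase encoded by Dio2, which holds alanine or threonine there. Mice of all groups were on the background strain written as C56BL/6, were 8 to 10 weeks old, and were kept at room temperature on chow. Sex, litter and the number of animals are not in the labels, and no label says which animal an array came from. The p-values therefore describe the spread among arrays of a group, and that spread may be technical. Whole tissue was used, so fewer cells of a type and less RNA per cell cannot be told apart in any value given here.

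The striatum is the input nucleus of the basal ganglia. Most of its neurons are GABA-releasing medium spiny neurons that receive dopamine from the midbrain and glutamate from cortex and thalamus. They form a direct pathway, marked by the dopamine D1 receptor, substance P and dynorphin, and an indirect pathway, marked by the D2 receptor, an adenosine receptor and enkephalin. D1 receptors raise and D2 receptors lower cyclic AMP, the messenger that many striatal signalling proteins make, break down or respond to. Large cholinergic interneurons supply most striatal acetylcholine, whereas glutamatergic projection neurons, the main neurons of cortex and hippocampus, are absent from the nucleus itself.

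Levels are log2 signals, so 1 unit is a 2-fold change, and a difference is striatum minus the mean of the 3 regions followed by its standard error from limma. Of 19505 named genes, 15168 passed a filter on dim signals. Calls needed both an adjusted p (Benjamini-Hochberg) under 0.05 and a difference of at least 1 unit. Negative control medians of the arrays lay between 5.73 and 6.02, and a level under that range has no reliable size, so a difference against it does not rank genes. The titles of the 8 arrays name the striatum, while their description lines add the word cortex. The mean level of 22 glutamatergic projection neuron genes was 8.69 to 10.48 on striatum arrays, against 11.50 to 12.32 on the others, and was highest among striatum arrays in Thr replicate 39 and Ala replicate 33. Ala amygdala replicate 1 stood apart with striatal transcripts, at a mean of 11.72 over 22 dopamine-cAMP signalling genes, against 9.74 to 10.36 on the other amygdala arrays. Where leaving out these 3 arrays moves a gene group's count of calls, the count without them is given. The 3 were picked by such levels in these data and leaving them out was not planned, so those counts are no independent check.

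Relative to the mean of the 3 regions, striatum had 764 genes called higher (5.04%) and 810 called lower (5.34%), together 10.4% of the genes tested. The adjusted p alone passed for 5831 genes (38.4%), and the median difference over all genes was 0.02, with the lowest 10% of genes under -0.64 and the highest 10% above 0.59. The largest differences were mostly upward: 45 genes were higher by at least 4 units and 22 were lower by that much, and at 6 units the counts were 10 and 2, with genes included whose lower level was under the control range. Of the called genes, 757 of 764 higher and 790 of 810 lower ones had the same sign against each of the 3 regions, and 464 and 424 were called against each. All 8 striatum arrays lay above all 24 others for 423 genes (2.79%) and below them for 353 (2.33%). Without Ala amygdala replicate 1 and striatum replicates Ala 33 and Thr 39, 823 genes were called higher and 878 lower, and 26 of 39 gene groups kept both of their counts. Set against single regions from the same fit, which share the striatum arrays, striatum had 882 genes called higher (5.81%) and 895 lower (5.9%) than amygdala. Against hippocampus the counts were 798 (5.26%) and 910 (6%), and against prefrontal cortex 774 (5.1%) and 866 (5.71%).

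**Figure D1:**
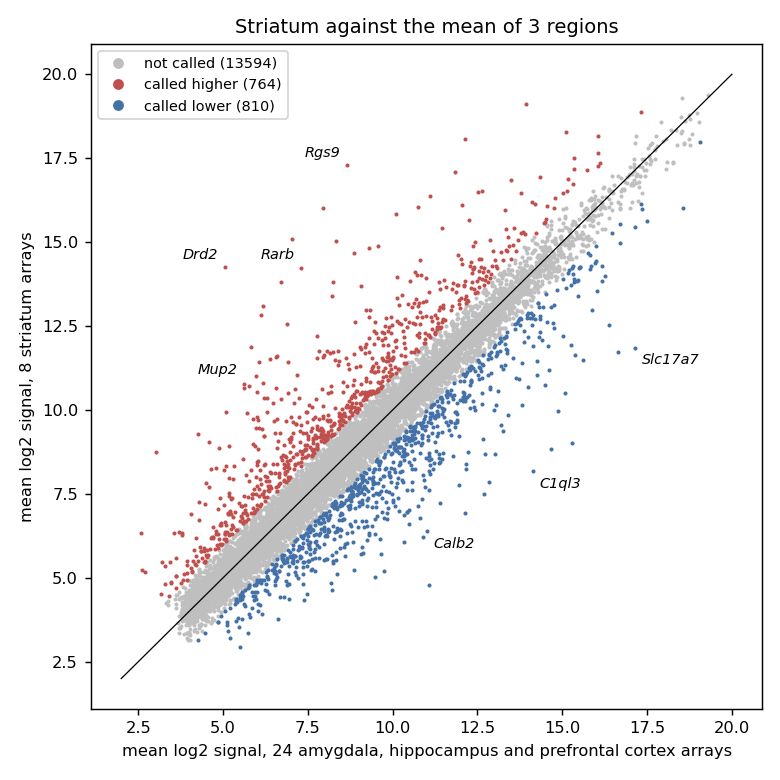
Mean log2 signal of each of 15168 genes on the 8 striatum arrays (y axis) and on the 24 amygdala, hippocampus and prefrontal cortex arrays (x axis), with the line of equal level. The 764 genes called higher in striatum lie above the line and the 810 called lower lie under it. Of the points with names, Drd2, Rgs9, Rarb and Mup2 lie above the line and Slc17a7, C1ql3 and Calb2 lie under it.

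The dopamine receptors and the peptides of both output pathways were among the most striatal transcripts. Of 9 measured D2-type neuron genes, 5 were called higher and 0 lower, with a median difference of 3.25, against 0.02 over all genes. Drd2, the dopamine D2 receptor, was between 13.66 and 14.93 (median 14.20) on striatum arrays, against between 4.18 and 9.97 (median 4.76) on the other 24. No array of another region reached the striatal range, and the highest of them was Ala amygdala replicate 1 at 9.97. The difference was 9.19 ± 0.39 (adjusted p = 9.67e-20), and the level in each of the 3 regions was under the negative control range, so it has no reliable size. Penk, the enkephalin precursor, was between 18.86 and 19.28 (median 19.13) in striatum, against between 13.42 and 18.01 (median 15.28) in amygdala, between 11.20 and 12.18 (median 11.60) in hippocampus and between 13.42 and 15.92 (median 14.74) in prefrontal cortex. Its striatal arrays lay within a narrow band above all others, and hippocampus was the lowest region. The difference of Penk was 5.17 ± 0.31 (adjusted p = 1.33e-15). Gpr6, a receptor that signals through cyclic AMP without a bound ligand, differed by 6.04 ± 0.17, Gpr52, an orphan receptor coupled to cyclic AMP, by 5.32 ± 0.16, and the transcription factor Six3 by 3.25 ± 0.25. Sp9, a transcription factor of developing D2-type neurons, had 0.73 and was under the threshold on size.

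Of 10 measured D1-type neuron genes, 8 were called higher and 0 lower, with a median difference of 3.55. Drd1, the dopamine D1 receptor, was between 12.31 and 14.46 (median 13.99) in striatum, against between 5.32 and 9.80 (median 6.48) in the other regions. Ala striatum replicate 36 was the lowest striatal array, and it still lay above all 24 others. The difference of Drd1 was 7.11 ± 0.29 (adjusted p = 4.08e-20), smaller against amygdala (6.06) than against hippocampus (7.84). Tac1, the precursor of substance P, was between 15.24 and 16.66 (median 15.79) in striatum, against between 10.23 and 13.45 (median 11.68) in amygdala, between 7.43 and 8.94 (median 8.54) in hippocampus and between 8.86 and 11.22 (median 10.41) in prefrontal cortex. Striatum did not overlap any other region, and amygdala came closest to it. The difference of Tac1 was 5.75 ± 0.26, and that of Pdyn, the dynorphin precursor, was 4.06 ± 0.25. Chrm4, the muscarinic M4 receptor, differed by 3.49 ± 0.18, the transcription factor Isl1 by 3.61 ± 0.20 and Slc35d3, of the nucleotide sugar transporter family, by 3.75 ± 0.19. Isl1 was under the control range in the 3 other regions. Eya1, a further member of the list, had -0.69 and was not called.

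**Figure D2:**
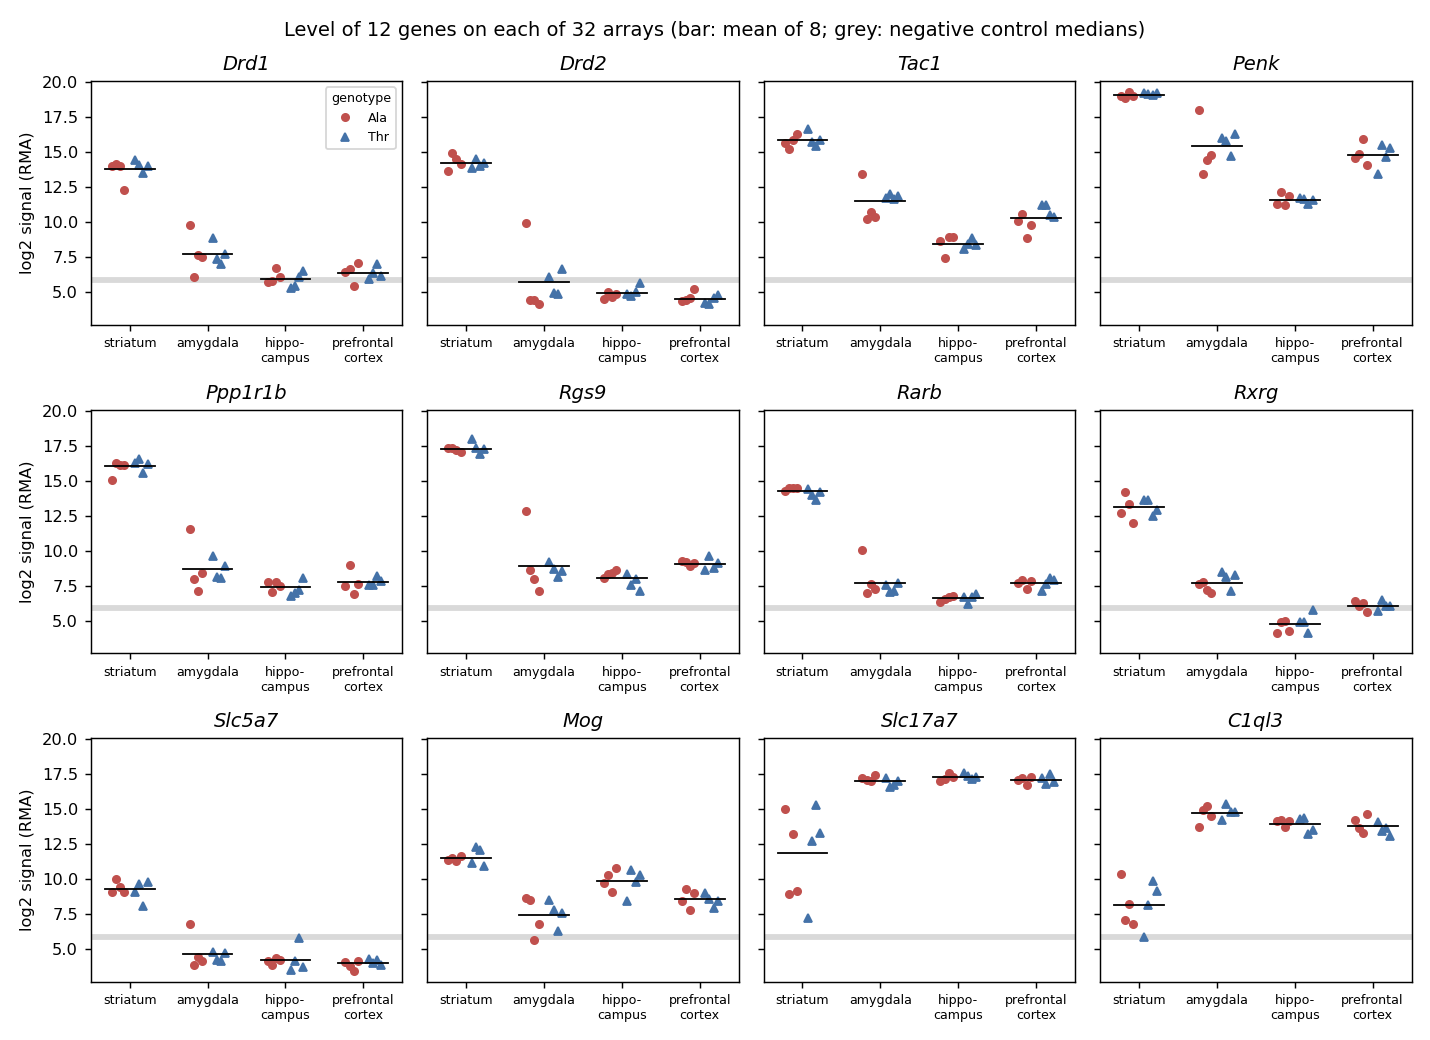
Log2 signal of 12 genes (y axes, one scale) on each array of 4 regions (x axes), with circles for Ala and triangles for Thr, a bar for the mean of 8 arrays, and a grey band for the negative control medians. The first 8 panels and Slc5a7 show striatum above every array of the other regions, Slc17a7 and C1ql3 show striatum below them, and the single high amygdala array in many panels is Ala replicate 1.

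Promoters were read for a cyclic AMP response element, the motif bound by the transcription factor CREB, because many of the genes described here code for cyclic AMP signalling. The windows run from 250 bases before to 50 bases after each gene's start and come from RefSeq, build GRCm38.p6. Of the 23 named striatal genes looked up, 17 had a window, 1 held the motif TGACGTCA and 2 held TGCGTCA or its reverse complement. These 3 windows are printed to show where the motif lies, 5′ to 3′ along the gene's strand, with the motif in capitals. The Gpr6 window is at chr10:41072241-41072540 on the minus strand with the motif 78 bases before the start. The Tac1 window is at chr6:7554811-7555110 on the plus strand with the motif 199 bases before it, and the Isl1 window is at chr13:116309639-116309938 on the minus strand with the motif 43 bases before it.
Gpr6: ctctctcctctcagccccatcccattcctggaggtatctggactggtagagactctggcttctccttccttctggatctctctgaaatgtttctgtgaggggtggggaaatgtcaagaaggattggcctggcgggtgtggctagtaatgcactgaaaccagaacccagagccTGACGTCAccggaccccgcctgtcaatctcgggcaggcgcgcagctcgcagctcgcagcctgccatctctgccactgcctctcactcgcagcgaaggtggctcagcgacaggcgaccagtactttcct
Tac1: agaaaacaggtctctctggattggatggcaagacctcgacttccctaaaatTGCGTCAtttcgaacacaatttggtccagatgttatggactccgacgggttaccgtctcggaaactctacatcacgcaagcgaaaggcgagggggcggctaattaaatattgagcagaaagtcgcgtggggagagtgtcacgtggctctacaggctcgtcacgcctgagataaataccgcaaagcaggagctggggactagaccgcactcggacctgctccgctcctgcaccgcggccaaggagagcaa
Isl1: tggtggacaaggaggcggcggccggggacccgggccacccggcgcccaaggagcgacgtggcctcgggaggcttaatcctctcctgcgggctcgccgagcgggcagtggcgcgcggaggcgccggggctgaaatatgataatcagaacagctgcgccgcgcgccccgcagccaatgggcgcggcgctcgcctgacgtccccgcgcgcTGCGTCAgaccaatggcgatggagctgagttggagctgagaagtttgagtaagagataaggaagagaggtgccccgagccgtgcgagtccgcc
On both strands TGACGTCA was in 8 of 600 windows of genes called higher (1.33%), in 17 of 627 of genes called lower (2.71%) and in 379 of 12243 of all genes tested (3.1%). TGCGTCA or its reverse complement was in 20 of the higher genes (3.33%), 12 of the lower genes (1.91%) and 441 of all genes (3.6%). The motifs are not nested in each other, and a match is a description of the letters and not of binding.

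Dopamine and cyclic AMP signalling was the group with the most complete shift. Of 22 measured genes, 21 were called higher and 0 lower, with a median difference of 3.74, and the same 21 calls in number were made in Ala arrays, in Thr arrays and without the 3 arrays that stood apart. Ala amygdala replicate 1 stood out by its level of this same list, so the last count is not separate support. For 18 of the 22 all striatum arrays lay above all others, where 2.79% of all genes did so. Rgs9, which speeds the shutdown of G proteins at dopamine receptors, was between 16.93 and 17.95 (median 17.26) in striatum, against between 7.09 and 12.86 (median 8.62) elsewhere. The striatal arrays formed a band far above the rest, and Ala amygdala replicate 1 was the highest other array. The difference of Rgs9 was 8.62 ± 0.34 (adjusted p = 2.59e-20). Ppp1r1b codes for DARPP-32, the phosphatase inhibitor switched by dopamine, and was between 15.08 and 16.57 (median 16.17) in striatum, against between 6.76 and 11.54 (median 7.78) elsewhere. Its lowest striatal array lay above the highest other array. The difference of Ppp1r1b was 8.07 ± 0.31 (adjusted p = 1.23e-20), or 269-fold.

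The enzymes that make and break down cyclic nucleotides followed the same direction. Adcy5, the adenylyl cyclase coupled to dopamine receptors in striatal neurons, was between 14.17 and 15.20 (median 14.58) in striatum, against between 8.03 and 11.03 (median 8.66) elsewhere, with a difference of 5.82 ± 0.17. Pde10a, the phosphodiesterase of medium spiny neurons, was between 17.30 and 18.50 (median 18.10) in striatum, against between 11.22 and 14.61 (median 12.04) elsewhere, with a difference of 5.94 ± 0.19. Neither gene's groups overlapped, and Ala amygdala replicate 1 was the highest array outside striatum for both. Pde7b, a phosphodiesterase specific for cyclic AMP, differed by 5.54 ± 0.29. Rasd2, the small G protein Rhes, was between 14.40 and 15.69 (median 14.90) in striatum, against between 7.22 and 11.11 (median 8.29) elsewhere, and differed by 6.69 ± 0.28. Rasgrp2, an activator of the small G protein Rap1, differed by 5.59 ± 0.23. The member not called was Ppp1r1a, a phosphatase inhibitor related to DARPP-32, at 0.60 ± 0.16.

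Among 14 ion channel genes studied in medium spiny neurons, 10 were called higher (11 without the 3 arrays) and 1 lower, with a median difference of 1.89. Scn4b, the beta 4 subunit of voltage-gated sodium channels, was between 13.96 and 15.73 (median 15.21) in striatum, against between 5.44 and 10.00 (median 7.09) elsewhere. No other array reached the striatal range. Its difference was 8.05 ± 0.32 (adjusted p = 1.97e-20). Potassium channel genes called higher had smaller differences: the accessory subunit Kcnab1 at 4.06 ± 0.15, Kcnh4 at 3.20 ± 0.18, the leak channel Kcnk2 at 2.85 ± 0.15, Kcna4 at 2.70 ± 0.16 and the inward rectifier Kcnj2 at 2.45 ± 0.17. Kcnab1 was less far above hippocampus (2.88) than above prefrontal cortex (5.28). Kcnh4 and Kcnj2 were under the control range in amygdala. The gene called lower, named here after its value was seen, was Kcnip1, an accessory subunit of fast-inactivating potassium channels, at -1.90 ± 0.19. The potassium channel Kcnq3 (0.82 ± 0.16) and the calcium channel subunits Cacnb4 (0.82 ± 0.15) and Cacna1d (-0.74 ± 0.14) were under the threshold on size.

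Transcription factors of the embryonic lateral ganglionic eminence, from which striatal neurons arise, and of mature striatal neurons were mostly higher. Of 24 measured, 16 were called higher and 1 lower (2 without the 3 arrays), with a median difference of 1.78. Rarb, the retinoic acid receptor beta, was between 13.61 and 14.50 (median 14.33) in striatum, against between 6.16 and 10.08 (median 7.18) elsewhere. Rxrg, a retinoid X receptor that pairs with it, was between 11.95 and 14.19 (median 13.12) in striatum, against between 6.99 and 8.50 (median 7.67) in amygdala, between 4.13 and 5.75 (median 4.90) in hippocampus and between 5.61 and 6.45 (median 6.06) in prefrontal cortex. Both receptors were higher in striatum on every array, and Rxrg was in amygdala closer to striatum than elsewhere. The differences were 6.92 ± 0.21 for Rarb and 6.92 ± 0.21 for Rxrg (adjusted p = 2.05e-23 and 2.02e-23). The median of Rxrg in hippocampus was under the control range, so its difference has no reliable size and does not rank it beside Rarb. Foxp1, a forkhead repressor of medium spiny neurons, was between 15.91 and 17.03 (median 16.50) in striatum, against between 11.25 and 14.49 (median 12.62) elsewhere, with a difference of 3.98 ± 0.22. Its relative Foxp2 was between 10.03 and 11.08 (median 10.75) in striatum, against between 4.66 and 8.60 (median 6.77) elsewhere, with a difference of 4.10 ± 0.29. Bcl11b, also called Ctip2, was between 12.25 and 13.36 (median 12.80) in striatum, against between 9.07 and 11.24 (median 9.86) elsewhere, and differed by 2.80 ± 0.14. The groups did not overlap for Foxp1, Foxp2 or Bcl11b. The single factor called lower was Dlx1, which is also active in migrating young interneurons, at -1.28 ± 0.25, and its difference came from prefrontal cortex (-3.49) rather than amygdala (-0.29) or hippocampus (-0.06).

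The retinoic acid list as a whole did not follow these receptors. Of 16 measured genes of retinoic acid synthesis, binding, signalling and breakdown, 4 were called higher and 0 lower, with a median difference of 0.39. Beside Rarb and Rxrg, these were the plasma retinol carrier Rbp4 (1.53 ± 0.24) and the cellular binding protein Crabp1 (1.40 ± 0.18), of which Crabp1 was under the control range in all the regions. Rara, the alpha receptor, had -0.59 ± 0.16 and the synthesis enzyme Aldh1a2 had -0.92 ± 0.26, both under the threshold on size.

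Receptors for opioids and serotonin split by subtype. Of 8 opioid genes, 5 were called higher and 1 lower (2 without the 3 arrays): besides Penk and Pdyn, the kappa receptor Oprk1 differed by 3.65 ± 0.27, the delta receptor Oprd1 by 1.22 ± 0.15 and the mu receptor Oprm1 by 1.13 ± 0.20, whereas the nociceptin receptor Oprl1 was lower at -1.35 ± 0.13. Oprm1 was at 0.22 against amygdala alone and 1.92 against hippocampus. Of 11 serotonin receptors, 2 were called higher and 2 lower. Htr1b, a receptor on the terminals of striatal output neurons, was between 13.01 and 13.71 (median 13.44) in striatum, against between 6.67 and 9.83 (median 8.11) elsewhere, with no overlap and a difference of 5.20 ± 0.19. Its close relative Htr1d differed by 4.85 ± 0.21. Htr1a was lower at -1.71 ± 0.14, and so was Htr3a, the subunit of an ion channel found in a class of cortical interneurons, at -2.11 ± 0.14.

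Endocannabinoid genes were mixed, with 1 of 9 called higher and 3 lower (4 without the 3 arrays). Cnr1, the CB1 receptor, was higher by 1.36 ± 0.17. Napepld and Faah, which make and break down anandamide, had -2.85 ± 0.21 and -1.86 ± 0.14, and the CB1-binding protein Cnrip1 had -2.41 ± 0.13. Markers of the striosome and matrix compartments did not separate as groups: 3 of 10 striosome genes were called higher (4 without the 3 arrays) and 1 lower, and 3 of 6 matrix genes were called higher and 2 lower. Of the matrix genes, Rasgrp2, the transcriptional inhibitor Id4 (2.62 ± 0.16) and the calcium buffer Calb1 (1.15 ± 0.22) were higher, and the guanine deaminase Gda (-1.56 ± 0.12) and the vesicle protein Sv2b (-2.14 ± 0.17) were lower. Of the striosome genes, Pdyn, Oprm1 and the Wnt inhibitor Kremen1 (1.10 ± 0.16) were higher and the imprinted Nnat was lower (-1.98 ± 0.26). Of 8 genes marking the ventral striatum, 1 was called, near the 10.4% of all genes called in either direction. It was the small membrane protein Tmem158 at 1.79 ± 0.14, and Crym, a thyroid hormone binding protein, had 0.33 ± 0.30. Single regions differed, with 1 higher and 2 lower against amygdala, 2 and 0 against hippocampus, and 5 and 1 against prefrontal cortex.

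Cholinergic neuron genes were higher in striatum, 7 of 9 (8 without the 3 arrays) with 0 lower and a median of 1.76. The mean level of the 9 genes was 6.66 to 8.08 on striatum arrays. It was 4.62 to 5.45 on the others, under the control range, so the list's differences as a whole have no reliable size. Slc5a7, the choline transporter of cholinergic terminals, was between 8.07 and 10.00 (median 9.27) in striatum, against between 3.46 and 6.78 (median 4.15) elsewhere. Chat, which makes acetylcholine, was between 5.03 and 7.45 (median 6.51) in striatum, against between 2.29 and 3.43 (median 2.51) elsewhere. Both sets of groups were apart, but the other regions were under the control range for both genes, so the differences of 4.99 ± 0.26 and 3.74 ± 0.18 (adjusted p = 2.08e-17 and 1.70e-18) have no reliable size. Chat was under the filter's threshold of 4.49 on every array outside striatum, so it was tested only through its striatum arrays. Its call and the gap between its groups are therefore no independent support. Slc10a4, a protein of cholinergic and other aminergic vesicles, differed by 3.48 ± 0.23, and Lhx8, the transcription factor that specifies these neurons, by 1.64 ± 0.14. Ache, which breaks down acetylcholine, had 0.96 ± 0.19, just under the threshold on size, and passed it without any 1 of the striatum replicates Ala 33, Thr 37 and Thr 39.

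Genes of GABA synthesis and vesicle loading were higher, while 2 uptake transporters were lower. Of 7 measured, 4 were called higher and 2 lower. The vesicular transporter Slc32a1 differed by 2.42 ± 0.15, the synthesis enzyme Gad2 by 1.70 ± 0.19 and the breakdown enzyme Abat by 1.47 ± 0.13. Gad1 differed by 1.08 ± 0.19 but was not above prefrontal cortex (-0.37). The uptake transporters Slc6a11 and Slc6a13 had -1.47 ± 0.18 and -1.06 ± 0.27. Of the 7 genes, 2 were called lower against amygdala, 2 against prefrontal cortex and 0 against hippocampus. Slc6a13 was not called in limma on Ala arrays alone (-0.789, adjusted p = 0.071). It also lost its call without any 1 of amygdala replicates Thr 6 and Thr 7 and striatum replicate Ala 36. Markers of GABA interneurons gave 0 higher and 4 lower of 10. Calb2, the calcium buffer calretinin, was between 5.68 and 7.34 (median 6.39) in striatum, against between 7.77 and 14.69 (median 11.06) elsewhere, with no overlap and a difference of -4.61 ± 0.28. It was highest in prefrontal cortex arrays, which also carried olfactory bulb transcripts, whose part in the result was not tested. Cck, a peptide of interneurons and of glutamatergic neurons, was between 9.11 and 14.50 (median 11.73) in striatum, against between 15.94 and 17.62 (median 16.57) elsewhere, and differed by -4.93 ± 0.40. Vip and Htr3a, markers of further interneuron classes, had -3.55 ± 0.30 and -2.11 ± 0.14, with striatum under the control range for both. Pvalb, Sst and Npy, which mark the main striatal GABA interneurons, had 0.44 ± 0.24, 0.18 ± 0.18 and 0.33 ± 0.20 and were not called. Nos1, made by the same neurons as Sst and Npy in striatum, had -0.93 ± 0.18.

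Several genes with the largest differences belonged to no list. Syndig1l, a membrane protein related to a regulator of synapse formation, differed by 6.71 ± 0.25. Cd4, best known as the coreceptor of helper T cells, was between 11.07 and 14.08 (median 12.67) in striatum, against between 5.93 and 8.48 (median 6.94) elsewhere. Every striatal array lay above every other array, and the difference was 5.69 ± 0.24 (adjusted p = 1.32e-19). Serpina9, a serine protease inhibitor known in human from germinal centre B cells, differed by 5.70 ± 0.15, with the 3 other regions under the control range. Genes of microglia, the immune cells of brain tissue, gave 0 calls of 11 in either direction by limma. Of these, 8 had an unadjusted p under 0.05, where 45.4% of all genes did. The adjusted p alone passed for 7 of the 11, all of them higher, where 2831 of all 15168 genes passed it as higher. Csf1r had 0.81 ± 0.12 and P2ry12 had 0.16 ± 0.15.

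Glutamatergic projection neuron genes were lower in striatum. Of 22 measured, 16 were called lower and 0 higher, with a median difference of -1.96, and 16 were lower without the 3 arrays that stood apart. Striatum replicates Ala 33 and Thr 39 stood out by their level of this same list, so the last count is not separate support. Slc17a7, the vesicular glutamate transporter of cortical and hippocampal neurons, was 15.01, 8.96, 13.24 and 9.13 on the Ala striatum arrays and 7.20, 12.73, 15.28 and 13.32 on the Thr striatum arrays, against between 16.61 and 17.58 (median 17.16) on the others. Striatum was below every other array, but it spread over the widest range of any region, with Thr replicate 39 and Ala replicate 33 nearest to the other regions and Thr replicate 37 lowest. The difference of Slc17a7 was -5.28 ± 0.57 (adjusted p = 2.19e-09). The same arrays carried the highest mean levels of glutamatergic genes, and the part of adjoining tissue in these levels was not tested. Nrn1, a secreted protein of excitatory neurons, was between 6.68 and 11.43 (median 8.14) in striatum, against between 13.42 and 15.93 (median 14.59) elsewhere, and differed by -5.83 ± 0.36. Neurod6, a transcription factor of these neurons, was between 5.74 and 10.55 (median 7.97) in striatum, against between 14.71 and 15.73 (median 15.13) in hippocampus and between 9.39 and 13.54 (median 10.71) in amygdala. Striatum and amygdala overlapped for Neurod6, and its difference was -4.97 ± 0.43. Bdnf, the neurotrophin that cortex supplies to striatal neurons, was between 3.74 and 6.75 (median 4.77) in striatum, against between 7.89 and 11.04 (median 9.19) elsewhere, and its difference of -4.46 ± 0.29 was measured against a striatal level under the control range. Tbr1 and Fezf2, factors of deep cortical layers, differed by -3.55 ± 0.49 and -3.51 ± 0.29, and Neurod2 by -3.33 ± 0.18. Camk2a (-0.86), a kinase of glutamatergic and striatal neurons alike, and the postsynaptic protein Nrgn (0.55) were not called.

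The genes lowest in striatum against every region included several proteins of glutamatergic synapses. C1ql3, a secreted protein of the synaptic cleft, was between 5.89 and 10.35 (median 8.16) in striatum, against between 13.06 and 15.34 (median 14.16) elsewhere, with no overlap. Its differences were -6.52 against amygdala, -5.76 against hippocampus and -5.58 against prefrontal cortex. Slc30a3, which loads zinc into glutamate vesicles, differed by -5.20 ± 0.31, and Cnih3, an auxiliary subunit of AMPA receptors, by -4.34 ± 0.24. Syt17, of the synaptotagmin family, had -5.18 ± 0.30 and the calcium-binding Cpne6 had -4.58 ± 0.21. Secreted proteins were among them too, with Ccn3 at -6.25 ± 0.40 and Tafa1 at -4.88 ± 0.22. Prdm8, a nuclear repressor, had -6.31 ± 0.25, and its striatal level was under the control range. Sidt1, of a family of nucleic acid transporters, had -4.25 ± 0.15.

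Markers of the other regions were lower in part. Of 12 amygdala markers, 6 were called lower (7 without the 3 arrays) and 0 higher, with Nr2f2, a nuclear receptor, at -6.01 against amygdala and -0.89 against prefrontal cortex. Of 12 hippocampal markers, 5 were called lower and 1 higher against the mean, and 10 were lower against hippocampus alone. The calcium sensor Cabp7 had -6.40 against hippocampus and 0.07 against prefrontal cortex. Of 7 olfactory bulb markers, 4 were called lower (5 without the 3 arrays). Striatum differed from prefrontal cortex by -5.39 for the cadherin Cdhr1 and -5.11 for secretagogin (Scgn). The values against hippocampus were -0.28 and -0.41. The mean level of the 7 markers was 4.67 to 5.24 on striatum arrays and 4.68 to 5.36 on hippocampus arrays. Both are under the control range, so the list's differences as a whole have no reliable size. Neocortical layer genes gave 8 lower and 3 higher of 16, the higher ones being Foxp2, Tle4 and Pcp4 (2.15 ± 0.17), a calmodulin regulator that is also abundant in striatum. Midbrain dopamine neuron genes gave 0 higher and 1 lower of 7, where 10.4% of all genes were called in either direction. The lower one was Nr4a2 (-3.52 ± 0.59), which cortical neurons also use, and the dopamine transporter Slc6a3 was under the control range in all the regions.

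**Figure D3:**
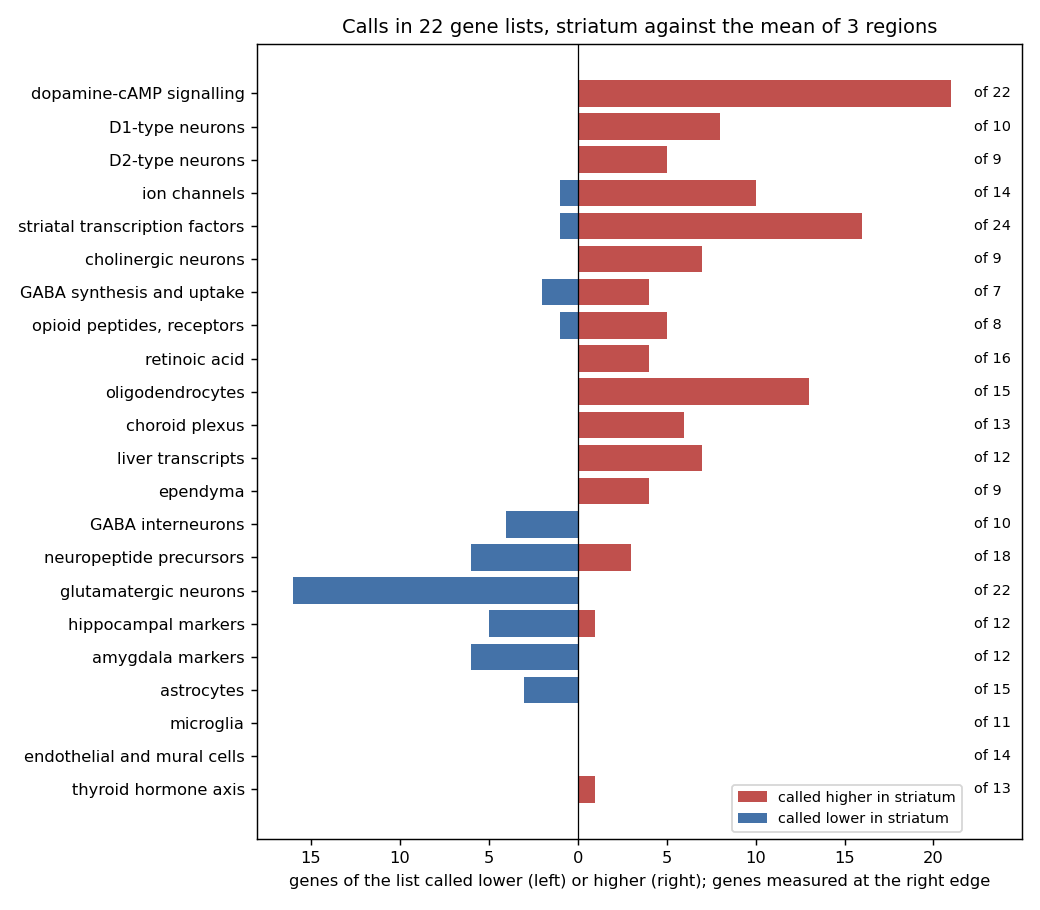
Number of genes called higher (right, red) or lower (left, blue) in striatum against the mean of 3 regions in 22 gene lists, with the number measured at the right edge. Dopamine-cAMP signalling has 21 of 22 higher, glutamatergic neurons have 16 of 22 lower, and microglia and endothelial and mural cells have 0 calls.

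Receptor subunits for the fast transmitters shifted in both directions. Of 9 GABA-A receptor subunits, 3 were called higher and 3 lower. The delta subunit Gabrd (2.14 ± 0.21), the gamma 3 subunit Gabrg3 (1.79 ± 0.18) and the alpha 4 subunit Gabra4 (1.35 ± 0.13) were higher. Gabra5, the alpha 5 subunit, was lower by the most at -3.73 ± 0.21, followed by Gabra3 (-2.47 ± 0.22) and Gabrb1 (-1.11 ± 0.16). Of 14 glutamate receptor subunits, 1 was called higher, the kainate subunit Grik2 (1.20 ± 0.09), and 4 were lower: Grik1 (-2.56 ± 0.17), Grin3a (-2.48 ± 0.16), Grin2a (-1.34 ± 0.12) and Grik4 (-1.17 ± 0.19). Grik4 and Grin2a were lowest relative to hippocampus, at -2.66 and -2.51.

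Oligodendrocyte and myelin genes were higher in striatum, 13 of 15 with 0 lower and a median of 2.34. Their mean level was 12.09 to 12.96 on striatum arrays, against 8.24 to 10.38 in amygdala, 10.07 to 11.97 in hippocampus and 9.71 to 10.91 in prefrontal cortex. Mog, a protein of the outer myelin surface, was between 10.93 and 12.30 (median 11.46) in striatum, against between 5.62 and 10.77 (median 8.54) elsewhere. The striatal arrays were above all others for Mog, and hippocampus came closest. Its differences were 4.07 against amygdala, 1.64 against hippocampus and 2.98 against prefrontal cortex. Mag, another myelin protein, differed by 2.81 ± 0.24, Mobp by 2.69 ± 0.32 and the tight junction protein Cldn11 by 2.71 ± 0.27. The part of white matter in these levels was not tested.

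Astrocyte genes gave 3 lower and 0 higher of 15, with a median of -0.11. Gfap, the intermediate filament of reactive and fibrous astrocytes, was between 8.02 and 10.01 (median 9.08) in striatum, against between 8.92 and 11.60 (median 10.35) in amygdala, between 11.31 and 13.04 (median 12.04) in hippocampus and between 9.21 and 10.28 (median 9.83) in prefrontal cortex. Hippocampus alone lay wholly above striatum, and the difference was -1.71 ± 0.26. The water channel Aqp4 had -1.45 ± 0.11 and the gap junction protein Gjb6 had -1.08 ± 0.14. Endothelial and mural genes gave 0 calls of 14 by limma. Of these, 5 had an unadjusted p under 0.05, where 45.4% of all genes did. The 14 genes of neural stem cells, dividing cells and neuroblasts gave 0 higher and 2 lower (3 without the 3 arrays). That is near the 10.4% of all genes called in either direction. The 2 were Dlx1 and the neuroblast protein Dcx, the second at -3.53 against prefrontal cortex and -0.04 against hippocampus.

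Choroid plexus genes, made by the epithelium that secretes cerebrospinal fluid into the ventricles, varied between arrays of every region. Of 13 measured, 6 were called higher (5 without the 3 arrays) and 0 lower against the mean of 3 regions, 10 in Ala arrays and 2 in Thr arrays. For 0 of the 13 were all striatum arrays above all others, where 2.79% of all genes were, so 0 is near that share. Ttr, the thyroid hormone carrier transthyretin, was 18.72, 16.31, 16.33 and 19.11 on Ala striatum arrays and 15.18, 16.01, 13.51 and 13.07 on Thr striatum arrays, against between 5.70 and 18.15 (median 10.25) on the other arrays. The groups overlapped, with Ala striatum replicates 36 and 33 highest and single hippocampus and amygdala arrays in the same range. The difference of Ttr was 5.29 ± 0.95 (adjusted p = 2.58e-05), and its dependence on genotype did not pass (adjusted p = 1.00), nor did that of any of the other genes of the list. The list's mean level was 7.05 to 9.91 on Ala striatum arrays and 5.98 to 6.61 on Thr striatum arrays, against 4.88 to 8.57 on the others. Without Ala striatum replicate 36, Kl was at 0.935 (adjusted p = 0.0706) and Kcne2 at 0.804 (adjusted p = 0.118) in limma, and neither was called. Kcne2 was also not called without Ala striatum replicate 33 (1.048, adjusted p = 0.0602 in limma), under array weights (0.918) or without the 3 arrays (1.118). Genes of ciliated ependymal cells, which line the ventricles, gave 4 higher of 9, among them Cfap126 at 2.37 ± 0.33. The mean level of these 9 genes was 5.38 to 6.33 on striatum arrays. It was 4.38 to 5.66 on the others, under the control range, so the list's differences as a whole have no reliable size. The part of ventricle lining in these levels was not tested.

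**Figure D4:**
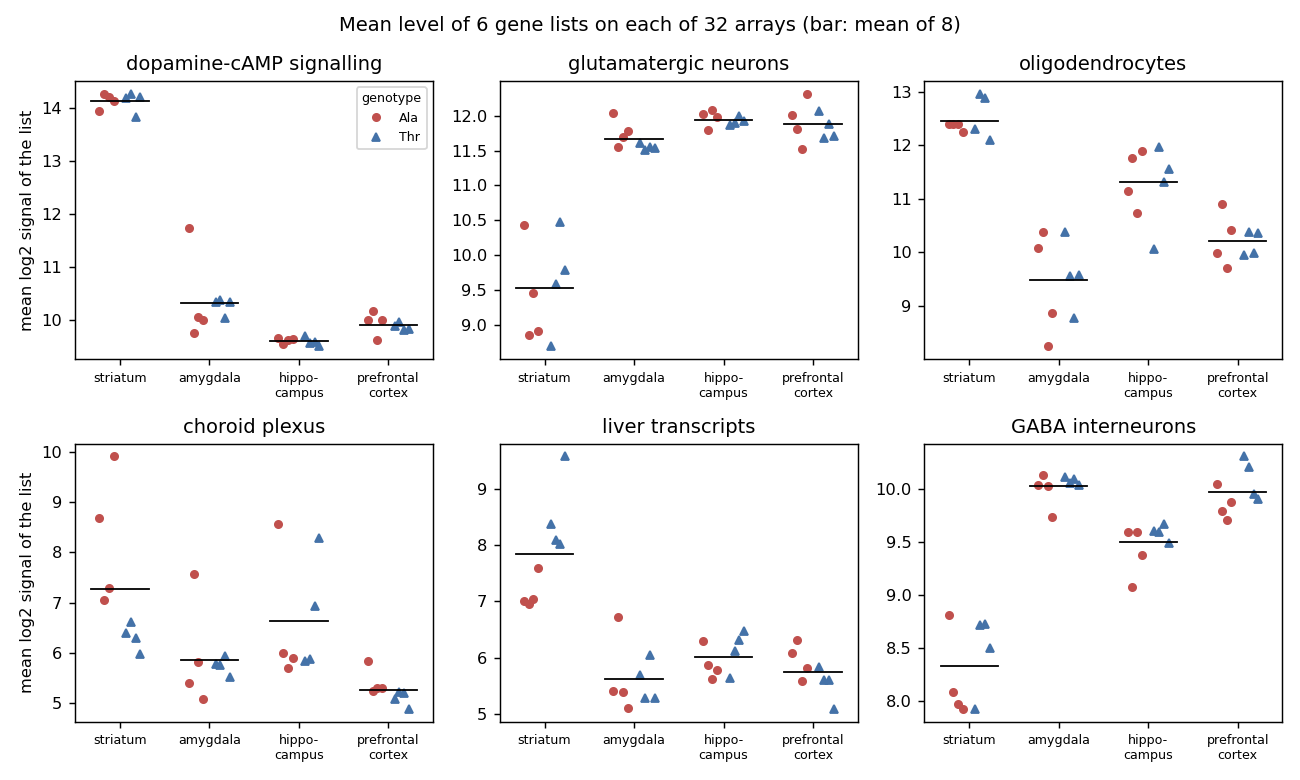
Mean log2 signal of 6 gene lists (y axes, scales differ) on each array of 4 regions (x axes), with circles for Ala, triangles for Thr and a bar for the mean of 8 arrays. Striatum is above all other arrays for dopamine-cAMP signalling and oligodendrocytes and below them for glutamatergic neurons and GABA interneurons, choroid plexus genes are highest on 2 Ala striatum arrays, and liver transcripts are higher on the Thr than on the Ala striatum arrays.

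The regional difference was then compared between genotypes, since the series was built to ask how brain areas differ between these mice. In Ala arrays 839 genes were called higher (5.53%) and 842 lower (5.55%), and in Thr arrays 735 higher (4.85%) and 800 lower (5.27%), together 11.1% and 10.1% of the genes. Both sets of counts are contrasts of the fit on 32 arrays, so they use different arrays but share its estimate of the spread. Fitted on Ala arrays alone the counts were 838 higher and 838 lower, and on Thr arrays alone they were 736 and 802. Of the higher genes 636 were called in both, 75.8% of the Ala and 86.5% of the Thr list, and of the lower genes 677, 80.4% and 84.6%. None of the called genes had opposite directions (0 of either list). Across the 15168 genes, which are not independent, the differences correlated with Pearson r = 0.922 and Spearman rho = 0.78. The difference between genotypes passed for 5 genes (0.033%), while 632 had an unadjusted p under 0.05. All 5 were negative and are best known as products of the liver: Alb, which codes for serum albumin, and the major urinary protein genes Mup2, Mup9, Mup19 and Mup22, whose sequences are nearly identical, so they may not be separate measures.

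Mup2 was 7.75, 7.68, 8.39 and 9.06 on the Ala striatum arrays and 13.82, 12.31, 12.28 and 14.84 on the Thr striatum arrays, against between 4.14 and 8.94 (median 5.16) on the 24 others. The Thr striatum arrays were above all others and did not overlap the Ala striatum arrays. The striatal difference was 2.56 in Ala and 7.72 in Thr, and these differed by -5.16 ± 0.83 (adjusted p = 0.00470). The median of Mup2 on the other arrays was under the control range, so its regional differences have no reliable size. Alb was 7.21, 7.03, 8.03 and 7.91 on the Ala striatum arrays and 11.72, 10.89, 10.84 and 14.58 on the Thr striatum arrays, against between 4.76 and 8.43 (median 5.85) elsewhere, with Thr replicate 40 highest. Its difference between genotypes was -4.23 ± 0.74 (adjusted p = 0.00801). For Mup22, Mup9 and Mup19 it was -5.25 ± 0.85, -4.62 ± 0.80 and -5.05 ± 0.94. Of 12 measured liver transcripts, 7 were called higher in striatum over both genotypes, 4 in Ala arrays and 10 in Thr arrays, and the list holds Ttr and Trf, which choroid plexus and oligodendrocytes also make. Their mean level was 6.96 to 7.60 on Ala striatum arrays and 8.02 to 9.58 on Thr striatum arrays, against 5.09 to 6.73 on the others. The calls on genotype were 0 under a robust variance prior and 2 without Thr striatum replicate 40. The part of RNA from another tissue was not tested.

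**Figure D5:**
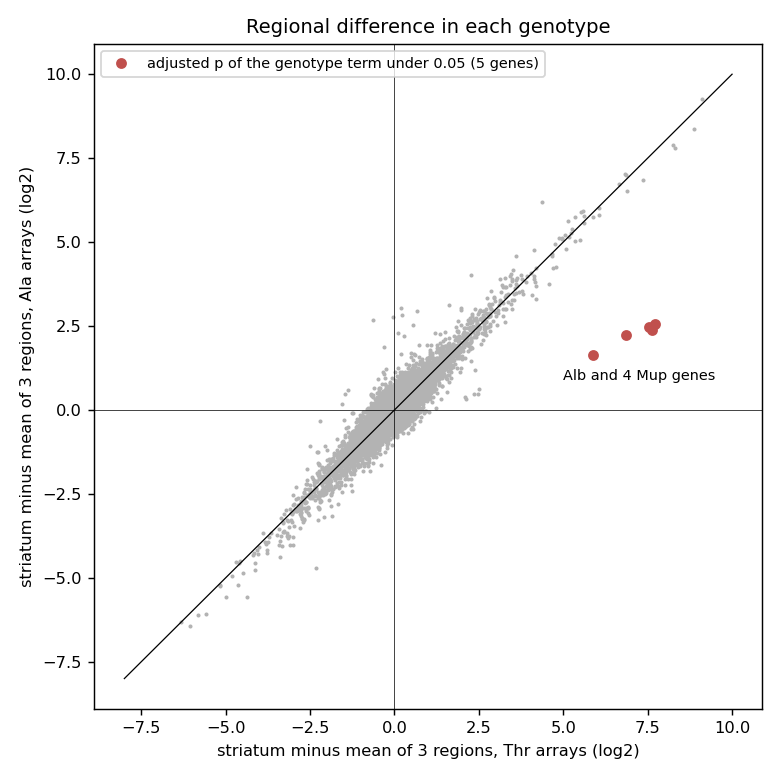
Striatum minus the mean of 3 regions (log2) in Ala arrays (y axis) and in Thr arrays (x axis) for each of 15168 genes, with the line of equal difference. Most genes lie along the line, and the 5 genes whose difference depended on genotype, Alb and 4 Mup genes, lie under it on the right.

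Genes of thyroid hormone action were looked up because type 2 deiodinase works in that field. Of 13 measured genes of hormone metabolism, transport and receptors, 1 was called higher, Rxrg, and 0 lower (1 without the 3 arrays), with a median of -0.09, where 10.4% of all genes were called in either direction. Dio2 was between 8.42 and 9.50 (median 9.19) in striatum, against between 7.91 and 9.15 (median 8.57) in amygdala, between 8.68 and 9.55 (median 9.38) in hippocampus and between 9.61 and 10.16 (median 9.96) in prefrontal cortex. Striatum lay between amygdala and prefrontal cortex, and the difference from the mean was -0.09 ± 0.13 (adjusted p = 0.653). The receptors Thra and Thrb had -0.58 ± 0.14 and -0.11 ± 0.19. Of 18 measured genes that thyroid hormone raises in rodent brain, 5 were called higher and 0 lower, with a median of 0.29. Of all genes 5.04% were called higher. Against single regions the counts were 8 higher and 0 lower for amygdala, 3 and 4 for hippocampus, and 4 and 0 for prefrontal cortex. Those higher than the mean were Rasd2, the calcium-dependent kinase Camk4 (2.32 ± 0.15), the clock output factor Dbp (1.73 ± 0.19), the adhesion protein Cntn2 (1.504 ± 0.21) and Sema7a (1.05 ± 0.17). Sema7a lost its call in Ala arrays alone (0.896), under array weights (0.921), and without striatum replicate Ala 36 (0.968) or Thr 38 (0.974). Klf9, a transcription factor induced by the hormone, had 0.89 ± 0.14, under the threshold on size, and Hr, a corepressor induced by it, had 0.10 ± 0.12.

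Immediate early genes, switched on by neuronal activity, gave 4 higher and 1 lower of 14 (3 and 2 without the 3 arrays), with 1 higher in Ala arrays and 4 in Thr arrays. Egr1, Egr2, Egr3 and Egr4, zinc finger factors of one family, differed by 1.24 ± 0.36, 1.31 ± 0.33, 1.21 ± 0.15 and 1.05 ± 0.19. Their differences against prefrontal cortex were smaller for Egr1 (0.05) and Egr2 (0.46) than against hippocampus (1.76 and 1.85), as values from comparisons that share the striatum arrays. Against prefrontal cortex alone 0 of the 14 genes were called higher and 2 lower, with a median of -0.40. The 4 Egr calls therefore did not hold against that region. Nr4a3, a nuclear receptor, was lower at -2.24 ± 0.35. Fos had -0.36 ± 0.28 and was not called. Among 18 neuropeptide precursors, 3 were higher, Penk, Tac1 and Pdyn, and 6 were lower (8 without the 3 arrays), including Cck, Vip and Adcyap1 (-1.51 ± 0.19), the precursor of PACAP.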

How the data were processed

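RNA from 5 brain regions was measured on 40 Affymetrix arrays. The deposited table holds log2 signals per transcript, which the authors made with RMA. That name is per the submitters' processing notes, and its version is not given in the sources used here. This method subtracts a modelled background, gives all arrays one distribution of probe signals and combines the probes of a transcript. It compresses differences at low signal, and array medians lay between 6.121 and 6.286. The deposited values were used unscaled. Of 28846 rows, 6640 were controls, 2634 transcript rows had no gene symbol in the platform table and 19572 had 1. The row with the highest mean was kept for 55 genes with several rows. Genes above the 30th percentile (log2 4.49) on at least 4 arrays were tested. A gene could thus pass through its striatum arrays alone, as Chat did. No arrays were identical.

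A mean for each of 8 groups was fitted on 32 arrays with limma 3.58.1 in R 4.3.3 (eBayes with a trend, 24 residual degrees of freedom), and adjusted p-values, Benjamini-Hochberg over all 15168 genes, are from this fit. Of 39 gene lists with 458 distinct genes, 406 genes were measured. The members and lists were chosen with earlier results of these data known. Named genes were the 15 higher and 12 lower called genes with the largest smallest regional difference, up to 6 called genes per list, marker genes always named, the genotype-dependent genes, and uncalled members of the lists. Some genes of the lists are not reported here. On simulated data, shifts of 0.5 units were called for 0% of 50 genes, of 1.5 units for 98%, and of 2 and 4 units for 100%, with 0 false calls. A shift of 0.5 is under the threshold on size, so its 0% was set by that threshold. The simulated noise was drawn separately for each gene, without effects shared by an array, so it cannot give the false calls of these arrays. The number of arrays limits the precision. Alternatives covered the filter, scaling, variance prior, array weights, row choice, thresholds, cerebellum and leaving out arrays.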

Additional observations from a re-analysis of the deposited data

Results flagged for a closer look

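Among 35 genes, each examined in 4 regions of 8 arrays, 18 of 140 sets held an array far from the others by Dixon's 95% value, and chance alone does this in about 1 in 20 sets. The 35 genes share arrays, so these are not 18 separate events.

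Ala amygdala replicate 1 was the highest amygdala array for 8 genes of striatal neurons. Its log2 levels were 9.97 for Drd2, 7.18 for Gpr6, 12.86 for Rgs9, 14.61 for Pde10a, 11.03 for Adcy5, 11.11 for Rasd2, 10.00 for Scn4b and 10.08 for Rarb. The next amygdala array was at 6.66 for Drd2 and 9.20 for Rgs9. The choline transporter Slc5a7 was also highest on this array, at 6.78.

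Within striatum, Ala replicate 36 was low for Drd1 at 12.31, Ala replicate 33 was low for Pde10a at 17.30, and Thr replicate 37 was high for Rgs9 at 17.95 and low for Dio2 at 8.42. In hippocampus, Thr replicate 24 was high for Drd2 at 5.68, Thr replicate 23 was high for Chat at 3.04 and for Slc5a7 at 5.80, and Thr replicate 22 was high for Mup2 at 7.21. In prefrontal cortex, Ala replicate 28 was high for Chat at 2.85. The Chat and hippocampal Drd2 and Slc5a7 levels were within or under the negative control range.

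The striatal difference depended on genotype for 5 genes by the interaction contrast in limma, given as Ala minus Thr: -5.25 for Mup22, -5.16 for Mup2, -5.05 for Mup19, -4.62 for Mup9 and -4.23 for Alb. The Mup genes are near-identical in sequence and may share signal.

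Outside the named genes, 1899 of 2634 transcript rows with no gene symbol passed the filter. Of these, 51 (2.69%) were called higher and 67 (3.53%) lower in striatum, against 5.04% and 5.34% of named genes.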

How the results depend on the processing

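The 11 counts reported were recomputed with each of 32 arrays left out and under other settings: 14 for the counts against the mean of 3 regions, 10 for those against single regions and on genotype, and 4 for those of groups that do not overlap. The counts stayed within 1.5 times except where given here. Without a threshold on the difference, 2831 genes were higher and 3000 lower, and with a threshold of 2 the counts were 243 and 222. The genotype-dependent genes numbered 0 under a robust variance prior (614 had an unadjusted p under 0.05 there), 8 with all 40 arrays and, with 1 array left out, 2 (without Thr striatum replicate 40) to 7 (without Thr prefrontal cortex replicate 29). With 1 array left out, the counts against the mean of 3 regions ranged from 722 to 788 higher and from 763 to 843 lower. They ranged from 835 to 926 and 870 to 947 against amygdala, from 767 to 822 and 871 to 951 against hippocampus, and from 747 to 803 and 833 to 911 against prefrontal cortex. Genes whose groups did not overlap ranged from 423 to 480 above and from 353 to 424 below. Of 181 called genes named in the text or in its lists, 162 kept their call under every alternative run for single genes, 19 lost it under at least 1 and 1 changed sign: Kl, a choroid plexus gene, was at -0.0508 in Thr arrays alone. Besides those described above, the 19 included Kremen1, Egr1, Egr2, Egr3, Egr4, Dlx1 and Gjb6. Genes near 0 that were not called changed sign too: in Ala arrays alone Pvalb was at -0.0417 and Npy at -0.0164, and in Thr arrays alone Thrb was at 0.107 and Hr at -0.0598. With 1 array left out, Dio2 ranged from -0.163 to 0.0175 and Thrb from -0.212 to 0.0312, both positive without Thr striatum replicate 37. The cause was not tested. Median centring and quantile normalization gave median differences over all genes of 0.03 and 0.00378, against 0.02 as deposited. No paired analysis was possible because the replicate numbers in the labels are all different. Signal near background limits dim genes: 143 of 764 higher genes had a mean under the negative control range in the other regions, and 161 of 810 lower genes had one in striatum.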

Other observations

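The genes here were chosen after their values were seen, so they describe these arrays and support nothing beyond them. The relatives set side by side here were picked because they were called in opposite directions. Among the adenylyl cyclases Adcy5 was higher (5.82 ± 0.17), while Adcy8, a form stimulated by calcium, was lower (-3.17 ± 0.23). Of G protein gamma subunits, Gng7 was higher (5.28 ± 0.25) and Gng2 was lower (-3.42 ± 0.22). Of calmodulin-dependent phosphodiesterases, Pde1b was higher (5.24 ± 0.18) and Pde1a was lower (-3.20 ± 0.29). Among synaptic vesicle proteins of the SV2 family, Sv2c was higher (3.77 ± 0.21), with no overlap between groups, and Sv2b was lower (-2.14 ± 0.17).

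Of the 4 subunit genes of the potassium channels opened by G protein-coupled receptors, Kcnj3 was lower in striatum at -3.89 ± 0.18, Kcnj6 at -4.04 ± 0.27 and Kcnj9 at -1.82 ± 0.23, and Kcnj5 had 0.09 ± 0.15 and was not called. All 8 striatum arrays lay below all 24 others for Kcnj3 and Kcnj6. Grm2, a presynaptic glutamate receptor, was lower at -4.68 ± 0.21. Of postsynaptic scaffold genes, Homer2 had -3.17 ± 0.14 and Shank1 had -2.78 ± 0.13, whereas Actn2, an actin crosslinker that binds NMDA receptors, was higher at 4.65 ± 0.18.

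Further genes whose striatal arrays lay above all others were Lrrk2, a kinase linked to inherited Parkinson disease, at 3.11 ± 0.29, and Ric8b, which helps the striatal and olfactory G protein alpha subunit to function, at 2.95 ± 0.13. The transcription factors Dach1, Pou3f4 and Foxo1 differed by 5.04 ± 0.20, 3.61 ± 0.19 and 3.61 ± 0.17. The orphan receptor Gpr139 differed by 3.02 ± 0.20, the ubiquitin ligase Sh3rf2 by 4.21 ± 0.17, the secreted proteoglycan Spock3 by 3.96 ± 0.16 and Gpx6, a glutathione peroxidase known from olfactory tissue, by 4.01 ± 0.16. Gpx6 was under the negative control range outside striatum, so its size is not reliable.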
